A study of Mus musculus with 8 samples.

Results

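Lipid-laden macrophages of fat and arteries, and the microglia of diseased brain, share a set of genes that is read here in the retinal pigment epithelium (RPE) and choroid of young and old mice. The genes were chosen by name: Trem2, Tyrobp, Spp1, Gpnmb, Cst7, Lpl, Clec7a, Cd9, Cd68 and Lgals3. Every probe set annotated to a single one of them was used, which gave 12 probe sets for 9 of the 10 genes, out of 34945 probe sets for 18193 genes. Spp1, which encodes osteopontin, was named by no probe set of its own in the annotation used and was not analysed here. The samples were RPE/choroid from male C57BL/6 mice, with 4 arrays from young animals (4 months) and 4 from old animals (26 months). An array stands for 2 mice, whose 4 RPE/choroids were pooled, so single animals were not measured. The labels give no treatment and no transgene.

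TREM2 is a surface receptor that binds lipids and lipoproteins on macrophages and microglia. It has almost no signalling tail of its own and passes its signal through the adaptor DAP12, the product of Tyrobp, to the kinase SYK. Macrophages that take up much lipid or debris raise surface, lysosomal and secreted proteins such as CD68, GPNMB, galectin-3 and osteopontin. In the eye, the RPE engulfs the shed tips of the photoreceptors every day, and the choroid beneath it holds resident macrophages. Several of the genes are not particular to macrophages: Gpnmb is a pigment cell gene, Cd9 is broad, and Lpl belongs to fat and muscle.

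In the RPE/choroid of old animals 7 of the 9 measured genes rose and 0 fell at an adjusted p under 0.05 from limma (0 fell at an unadjusted p under 0.05 too). Trem2, Tyrobp, Clec7a, Cd9, Gpnmb, Cd68 and Lgals3 rose, while Lpl and Cst7 did not pass. The study lists several of the 9 as changed on these same arrays, with Tyrobp named in its text, so this count is not independent evidence of their direction. Each gene is read by its brightest probe set unless another is named. Of all 18193 genes 11.8% rose and 9.56% fell. All later counts of listed genes are to be read beside these shares. A rise of more than 2-fold with an adjusted p under 0.01 was found for 5 of the 9, which were Trem2, Tyrobp, Clec7a, Cd68 and Lgals3, against 1.13% of all genes. Of the 12 probe sets 8 rose, against 9.22% of all 45037 probe sets tested. In 9 of the 12 the lowest old array lay above the highest young array, which held for 12.3% of all probe sets. The median log2 fold change (old minus young) of the 9 genes was 1.04, and that of all genes was -0.02. The number of arrays limits the precision of every value.

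**Figure D1:**
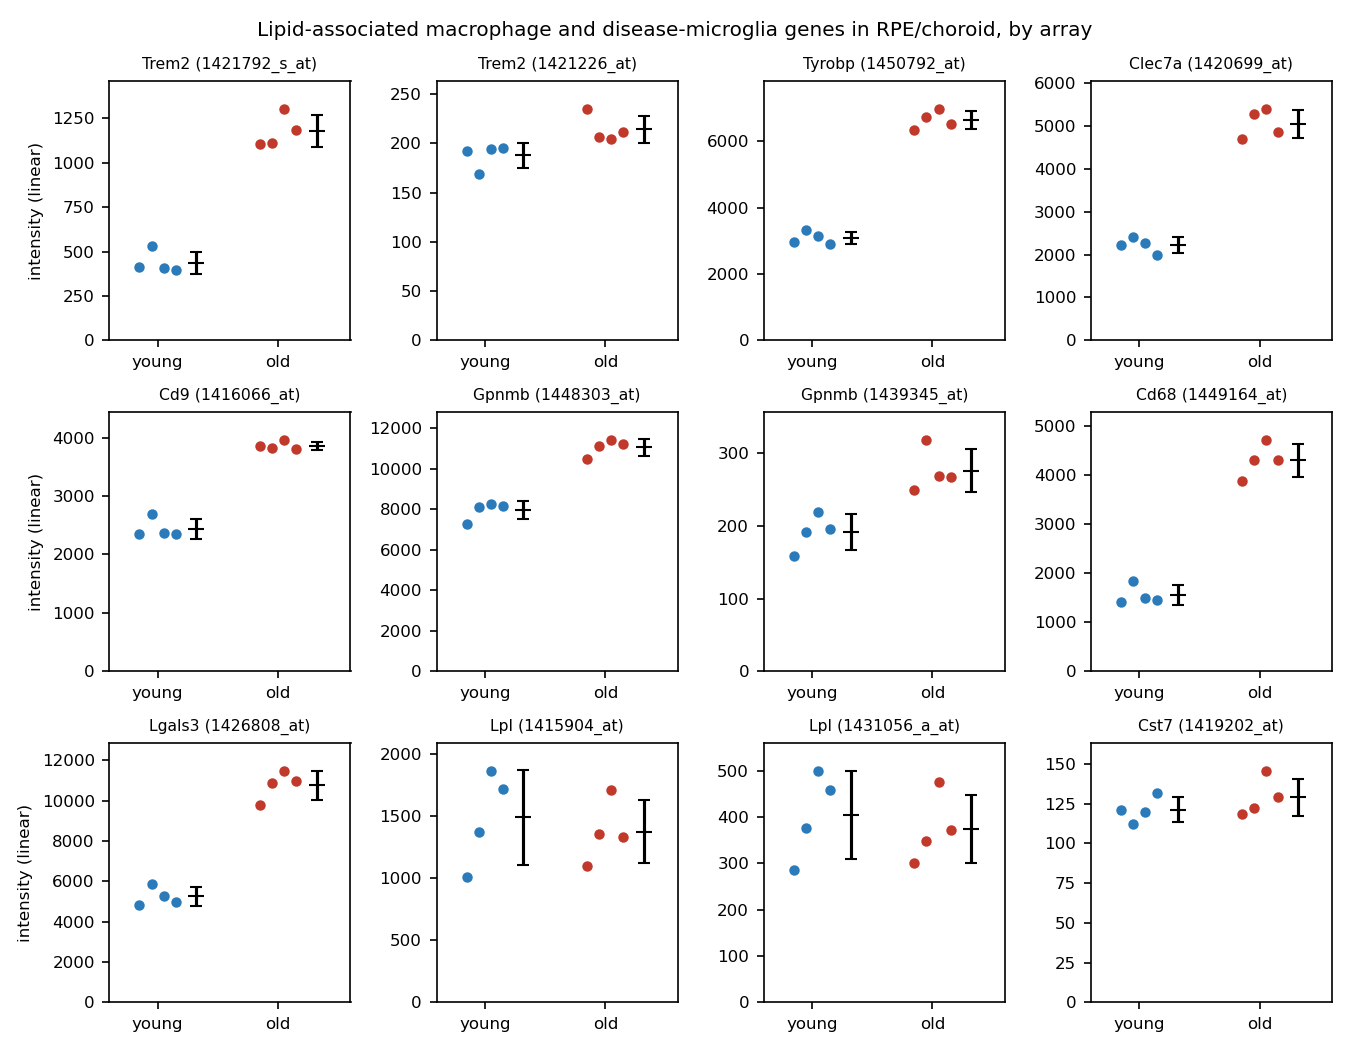
Deposited intensity (vertical axis, linear, from 0) of each of the 12 probe sets in 4 young (blue) and 4 old (red) arrays of RPE/choroid, with the mean and SD of each age as a black bar. Young and old arrays are separate in 9 panels and overlap in both Lpl panels and in Cst7.

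Rpe65, the isomerase of the visual cycle in the RPE, had an intensity of 11578 ± 543 (SD, n = 4) in young and 11066 ± 254 (SD, n = 4) in old animals. Markers of neural retina cells were read as well. The summed intensity of 8 rod markers was 9657 to 19895 in the young arrays and 7869 to 19839 in the old ones. That of 10 markers of Mueller glia and astrocytes was 20091 to 22004 and 19745 to 21292. The mean log2 value of these 10 did not overlap, at 9.30 to 9.46 in the young arrays and 8.44 to 9.11 in the old ones. By the test of age 4 of the 10 fell and 1 rose. How much neural retina the samples held was not tested. Array medians lay between 129 and 135. Old replicate 2 stood apart in neutrophil markers, with a summed intensity of 18155 for 9 genes against 1799 to 3053 in the other old arrays. Without that array 8 of the 12 probe sets rose. With old replicates 2 and 4 both left out, a choice made once the data had been seen, 7 did. The tissue was measured in bulk, so more cells of a type and more RNA per cell cannot be told apart.

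The promoters of the genes that rose more than 2-fold and have a window, and that of Cst7, are shown here to let the letters stand beside the values. Windows of 250 bases before the annotated start were taken from RefSeq (GRCm38.p6), and 8 of the 10 genes matched an entry. No window was held for Tyrobp or Lpl. Capitals mark GAGGAA, a form of the site bound by PU.1, the master transcription factor of macrophages, and TGACTCA, the letters of AP-1, on either strand. Other forms of the PU.1 site were not searched, so a window without these capitals, such as that of Cst7, can still hold such a site. These marks did not overlap one another. Cst7, which did not pass, is set beside Trem2, Clec7a, Cd68 and Lgals3, and the windows of Cd9 and Gpnmb, which rose less, are not printed.
Trem2, chr17:48346151-48346400, plus strand: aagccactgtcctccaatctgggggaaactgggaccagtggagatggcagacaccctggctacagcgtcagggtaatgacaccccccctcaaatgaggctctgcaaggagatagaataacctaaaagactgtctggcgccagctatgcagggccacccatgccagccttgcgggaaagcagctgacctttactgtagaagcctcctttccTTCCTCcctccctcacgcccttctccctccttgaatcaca
Clec7a, chr6:129472780-129473029, minus strand: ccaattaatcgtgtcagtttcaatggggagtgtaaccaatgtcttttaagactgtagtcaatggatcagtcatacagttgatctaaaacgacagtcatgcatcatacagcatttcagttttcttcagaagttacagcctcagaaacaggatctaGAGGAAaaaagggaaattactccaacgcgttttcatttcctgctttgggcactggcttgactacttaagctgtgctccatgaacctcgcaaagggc
Cd68, chr11:69666171-69666420, minus strand: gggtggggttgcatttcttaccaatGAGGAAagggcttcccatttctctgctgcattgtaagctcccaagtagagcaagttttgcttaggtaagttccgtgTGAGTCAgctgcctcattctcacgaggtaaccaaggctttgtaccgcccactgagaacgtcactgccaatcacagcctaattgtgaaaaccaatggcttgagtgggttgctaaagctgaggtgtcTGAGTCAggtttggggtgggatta
Lgals3, chr14:47373610-47373859, plus strand: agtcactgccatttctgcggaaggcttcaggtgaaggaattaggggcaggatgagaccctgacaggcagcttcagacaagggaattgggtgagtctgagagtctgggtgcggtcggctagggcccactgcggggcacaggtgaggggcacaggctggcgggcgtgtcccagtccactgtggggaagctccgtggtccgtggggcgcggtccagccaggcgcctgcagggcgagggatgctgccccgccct
Cst7, chr2:150570165-150570414, plus strand: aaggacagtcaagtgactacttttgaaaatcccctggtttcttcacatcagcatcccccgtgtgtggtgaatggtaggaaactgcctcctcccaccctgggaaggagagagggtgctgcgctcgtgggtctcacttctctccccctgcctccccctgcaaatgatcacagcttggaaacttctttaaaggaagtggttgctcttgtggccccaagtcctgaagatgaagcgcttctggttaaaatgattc

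GAGGAA stood in the windows of 3 of the 7 measured genes with an entry, Trem2, Clec7a and Cd68, and in 23.3% of all 32851 windows of this length. In Trem2 it lay 40 to 35 bases before the start, on the opposite strand. In Clec7a, where a second annotated start lies close by, it lay 96 to 91 bases before the start shown, and in Cd68 225 to 220 bases before it. TGACTCA was found at 2 places in Cd68, 149 to 143 and 24 to 18 bases before the start, and in no other of the 7 genes, against 4.46% of all windows. The E-box letters CATGTG or CACGTG, which MITF and its relatives bind, were found in Cd9 alone of the 7 genes, against 17.6% of all windows. These letters are a description of the windows and were not tested for binding.

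Trem2, the receptor of the pair, was measured by 2 probe sets that did not give the same size of change. By the brighter one, 1421792_s_at, its intensity was 413, 531, 407 and 398 in the young arrays and 1107, 1113, 1301 and 1185 in the old arrays. No old array came near the young range. Trem2 by this probe set rose 2.71-fold (95% interval 2.31 to 3.16), or by 1.44 ± 0.10 on the log2 scale (SE, limma adjusted p = 4.7e-05). By 1421226_at the intensity was 192, 169, 194 and 195 in young and 235, 207, 205 and 212 in old animals. The lowest old array was still above the highest young one, but the difference of 0.19 ± 0.07 on the log2 scale (SE) did not pass (limma adjusted p = 0.0858, and from 0.0406 to 0.183 over the alternatives). Its 95% interval, 1.03-fold to 1.27-fold, did not reach that of the brighter probe set. Which transcripts each of them reads was not tested.

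Tyrobp, which encodes the adaptor DAP12, had an intensity of 2965, 3335, 3144 and 2904 in young and 6333, 6729, 6966 and 6508 in old animals. The spread within an age was small, with an SD of 194 in young and 274 in old arrays. Tyrobp rose 2.15-fold (95% interval 1.95 to 2.37), or by 1.10 ± 0.06 on the log2 scale (SE, limma adjusted p = 3.3e-05). By p it ranked 21 of all 45037 probe sets. DAP12 also serves receptors of NK cells and neutrophils. Of 8 NK cell markers, 2 rose, Nkg7 by 1.36 and Klrd1 by 0.38 on the log2 scale (1 without young replicate 1 or 3 or old replicate 2 or 3), where 11.8% of all genes rose. The summed intensity of the 8 was 818 to 950 in the young arrays and 837 to 981 in the old ones. Their mean log2 value was 6.42 to 6.47 in the young arrays and 6.49 to 6.74 in the old ones, without overlap. Of 9 neutrophil markers, S100a8 and Camp rose and Cxcr2 fell, with 1 higher when any one young array or old replicate 3 or 4 was left out, and the fall of Cxcr2 lost when any single array but young replicate 2 or old replicate 2 was left out. Tyrobp in old replicate 2, where the neutrophil markers were highest, lay within the range of the other old arrays. The part of NK cells and neutrophils in the level of Tyrobp was not tested.

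Clec7a encodes dectin-1, a receptor of myeloid cells for beta-glucan that signals through SYK without DAP12. Its intensity was 2218, 2418, 2272 and 1981 in young and 4686, 5266, 5385 and 4843 in old animals. Every old array was thus above every young one. Clec7a rose 2.27-fold (95% interval 2.02 to 2.56), or by 1.18 ± 0.08 on the log2 scale (SE, limma adjusted p = 3.7e-05).

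Cd68 encodes a heavily glycosylated protein of the late endosome and lysosome of macrophages. It had the largest change of the 9 genes, from 1410.5, 1851, 1508 and 1455 in young to 3886, 4313, 4717 and 4310.2 in old animals. Every old array was far above the young range. Cd68 rose 2.78-fold (95% interval 2.39 to 3.22), or by 1.47 ± 0.10 on the log2 scale (SE, limma adjusted p = 3.7e-05). Trem2 by its brighter probe set and Cd68 had intervals that overlapped almost entirely, so their order was not resolved.

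Gpnmb, a type I membrane glycoprotein of melanosomes and lysosomes, is made by pigment cells as well as by lipid-laden macrophages. Its brighter probe set, 1448303_at, was at 7286, 8115, 8283 and 8174 in young and at 10464, 11124, 11414 and 11222 in old animals. Old arrays were above young arrays throughout, by a smaller step than for Cd68. Gpnmb rose 1.39-fold (95% interval 1.26 to 1.53), or by 0.47 ± 0.06 on the log2 scale (SE, limma adjusted p = 0.00107). The dimmer probe set, 1439345_at, was at 159, 192, 219 and 196 in young and at 249, 318, 269 and 267 in old animals and gave nearly the same change (0.53 ± 0.11 on the log2 scale, limma adjusted p = 0.0102). With old replicates 2 and 4 left out it kept its direction and no longer passed (limma adjusted p = 0.0735). Markers of pigment cells went the other way. All 8 of 8, among them Tyr, Pmel, Gpr143 and Slc45a2, fell, by 0.19 to 0.51 on the log2 scale, and their summed intensity was 58530 to 59805 in the young arrays and 46036 to 54465 in the old ones. This count fell to 4 or 5 when any single array other than old replicate 1 was left out, and to 1 without old replicates 2 and 4, while the summed intensities did not overlap. Of 9 RPE markers, Rlbp1, Lrat and Rdh5 fell and 0 rose (0 at an unadjusted p under 0.05), with a summed intensity of 81321 to 83504 in the young arrays and 74796 to 78367 in the old ones. Without young replicate 1 or 3 or any of old replicates 2 to 4, 1 of these RPE markers fell. Their part in the level of Gpnmb was not tested.

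Cd9, a tetraspanin found on macrophages, platelets, glia and many other cells, was at 2343, 2686, 2369 and 2351 in young and at 3852, 3825, 3954 and 3803 in old animals. The old arrays were tightly grouped, with an SD of 66.8. Cd9 rose 1.59-fold (95% interval 1.44 to 1.74), or by 0.67 ± 0.06 on the log2 scale (SE, limma adjusted p = 0.000157). Of 6 markers of Schwann cells and myelin, another source of tetraspanins, Mbp and Sox10 fell and 0 rose (0 at an unadjusted p under 0.05), and their summed intensity was 7062 to 7873 in the young arrays and 6948 to 7425 in the old ones.

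Lgals3 encodes galectin-3, a lectin that macrophages secrete and that gathers on damaged lysosomes. Its intensity was 4845, 5892, 5283 and 4992 in young and 9772, 10872, 11462 and 10954 in old animals. The ages were again separate. Lgals3 rose 2.05-fold (95% interval 1.82 to 2.32), or by 1.04 ± 0.08 on the log2 scale (SE, limma adjusted p = 6.6e-05). The interval includes 2-fold. Without young replicate 1 the log2 fold change of Lgals3 was 0.999, just under the fold limit, which left 4 genes past it.

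Lpl encodes lipoprotein lipase, the enzyme that frees fatty acids from triglyceride in lipoproteins. It was measured by 2 probe sets that agreed in size. By the brighter one, 1415904_at, it was at 1009.8, 1374, 1863 and 1723 in young and at 1097, 1355, 1712 and 1329 in old animals. The ages overlapped, and the young arrays had an SD of 382 around a mean of 1492, a coefficient of variation of 25.6% against at most 14.4% for the genes above. The difference on the log2 scale was -0.10 ± 0.20 (SE, limma adjusted p = 0.762), and the 95% interval ran from 0.688-fold to 1.27-fold. The other probe set, 1431056_a_at, was at 286, 376, 499 and 458 in young and at 300.2, 349, 477 and 372 in old animals, again with overlap. It gave -0.10 ± 0.19 (SE, limma adjusted p = 0.748), with an interval of 0.697-fold to 1.25-fold. A rise as large as that of Gpnmb lies outside both intervals. Fat and muscle are the classical sources of Lpl. Of 5 fat markers Fabp4, which macrophages also make, rose by 1.88 on the log2 scale, and the summed intensity of the 5 was 587 to 759 in the young arrays and 1471 to 2190 in the old ones. Adipoq, Cidec, Lep and Retn, the other 4, had mean intensities of 28.5 to 100.3 in either age and did not pass. The 9 skeletal muscle markers had a summed intensity of 1226 to 2378 in the young arrays and 1063 to 2214 in the old ones, with 0 changed (0 at an unadjusted p under 0.05, the smallest p being those of Myh4 and Ckm).

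Cst7 encodes cystatin F, an inhibitor that is sent to the lysosome and holds back cathepsins. Its intensity was 121, 113, 120 and 131 in young and 118, 123, 145 and 129 in old animals. These values lie near the middle of all probe sets, whose median was 132. Young and old arrays overlapped, and the difference on the log2 scale was 0.08 ± 0.08 (SE, limma adjusted p = 0.485), with a 95% interval of 0.939-fold to 1.20-fold. Detection calls were not used here, so whether Cst7 was above background was not tested.

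**Figure D2:**
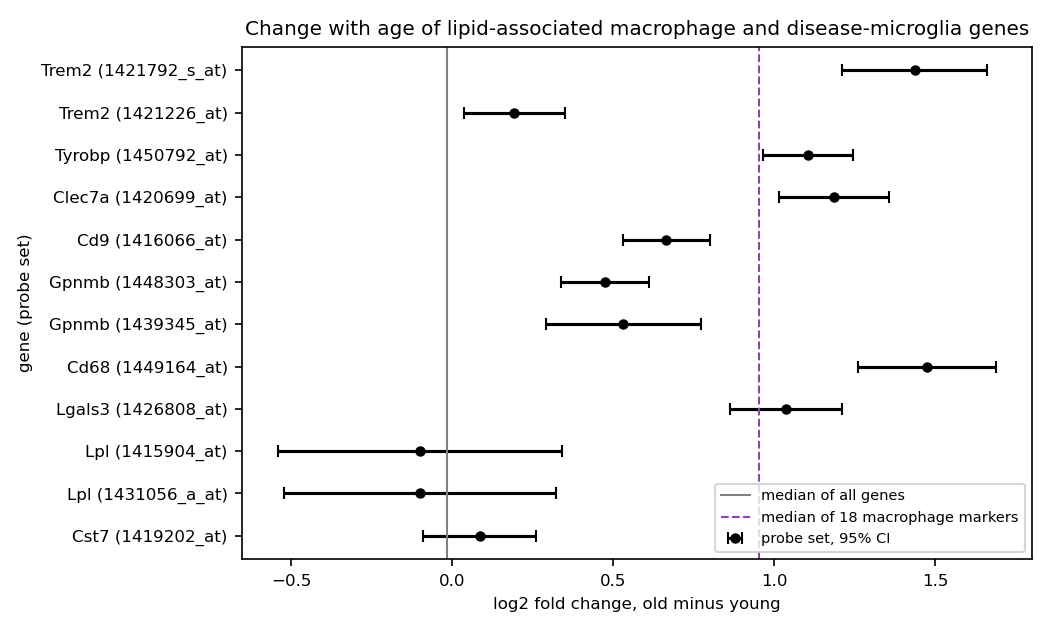
Log2 fold change, old minus young, of each probe set (points) with its 95% interval from limma (bars), beside the median of all genes (grey line) and of 18 macrophage markers (dashed purple line). Trem2 by 1421792_s_at and Cd68 lie farthest to the right at 1.44 and 1.47, Cd9 and Gpnmb lie between the lines, and Lpl and Cst7 have intervals that include 0.

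The 9 genes were set beside 18 other macrophage markers. Of the 18, 12 rose and 0 fell (0 at an unadjusted p under 0.05), with a median log2 fold change of 0.95, and their summed intensity was 30696 to 34752 in the young arrays and 51098 to 56319 in the old ones. Itgam, the alpha chain of complement receptor 3, rose by 1.52, C1qb and C1qc, chains of the first complement component, each by 1.35, and the leukocyte common antigen Ptprc by 1.30 on the log2 scale. The other 6 did not pass. Csf1r, the receptor for the growth factor CSF1, was at 5003 ± 277 (SD, n = 4) in young and 4869 ± 188 (SD, n = 4) in old animals (limma adjusted p = 0.691), and Mertk, Cd14, Lyve1, Folr2 and Cd163 were the remaining 5. Lyve1 and Folr2, which mark resident perivascular macrophages, were at 141 and 124 in young and at 144 and 115 in old animals. These values lie near the median of all probe sets, 132. Whether Lyve1 and Folr2 were above background was not tested.

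As an added description, each gene's log2 shift from its young mean was taken relative to the median shift of those 18 markers in the same array. This median had itself shifted by 0.71 to 1.09 in the old arrays, and it includes the 6 markers that did not pass. Cd68, Trem2 by its brighter probe set and Clec7a stood above the median in all 4 old arrays, by 0.39 to 0.77, 0.27 to 0.74 and 0.16 to 0.42, without overlap with the young arrays. They did not stand above every marker. Itgam rose by 1.52 on the log2 scale, against 1.47 for Cd68 and 1.44 for Trem2. C1qb and C1qc rose by 1.35, against 1.18 for Clec7a. The other Trem2 probe set, 1421226_at, stood below the median in all 4 old arrays, at -0.95 to -0.53, again without overlap. Tyrobp, at 0.03 to 0.37, and Lgals3, at -0.04 to 0.35, overlapped the young arrays, where they ran from -0.04 to 0.10 and from -0.10 to 0.08. Cd9 stood below the median by 0.07 to 0.44, and Gpnmb by 1448303_at by 0.21 to 0.61. Gpnmb by its dimmer probe set, 1439345_at, at -0.47 to -0.22, overlapped the young arrays, where it ran from -0.24 to 0.27. Lpl by its brighter probe set, at -1.26 to -0.70, and Cst7, at -1.07 to -0.62, stood farthest below. These differences were not tested.

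**Figure D3:**
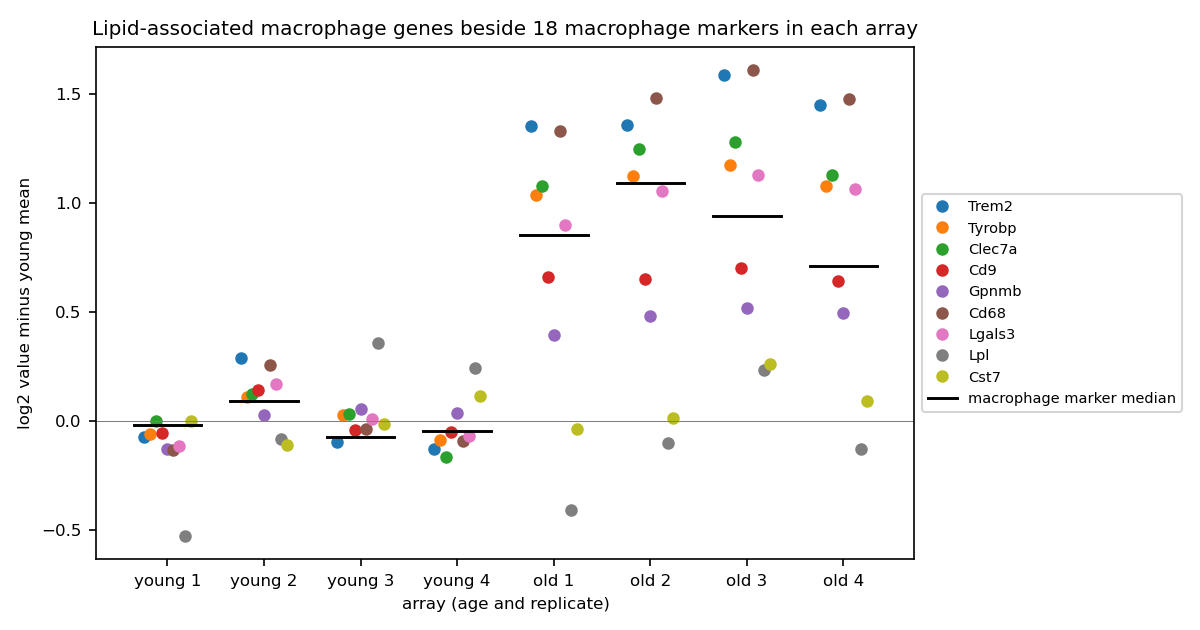
Log2 value minus the young mean (vertical axis) of the 9 genes, each by its brightest probe set (coloured points), in each of the 8 arrays, with the median of 18 macrophage markers as a black line. In all 4 old arrays Cd68, Trem2 by 1421792_s_at and Clec7a lie above the line and Cd9, Gpnmb, Lpl and Cst7 below it.

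By their brightest probe sets the genes shared much of their order among arrays of one age. Old replicate 3 had the highest old value for 9 of the 9 genes, where it was the highest old array for 21.9% of all genes, and old replicate 1 had the lowest old value for 8 of them, against 29.8% of all genes. Lpl and Cst7, which did not pass the test of age, shared this order. Among the young arrays, replicate 2 was the highest for 6 of the 9, against 22.1% of all genes. The dimmer probe sets differed in part: Trem2 by 1421226_at was highest in old replicate 1 and lowest in old replicate 3, and Gpnmb by 1439345_at was highest in old replicate 2. What sets these arrays apart was not tested.

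Of 14 measured genes of the signalling chain below TREM2 and DAP12, 11 rose and 0 fell (0 at an unadjusted p under 0.05), with a median log2 fold change of 0.45. Syk, the kinase that docks on DAP12, was at 185 ± 10.2 in young and rose to 435 ± 56.8 in old arrays (SD, n = 4), or by 1.22 ± 0.10 on the log2 scale (SE, limma adjusted p = 8.6e-05). Blnk and Lat2, adaptors of the same chain, rose by 0.96 and 0.71, and Inpp5d, the phosphatase SHIP1 that dampens it, by 0.69. Plcg2, the phospholipase next in line, rose by 0.36 (limma adjusted p = 0.00629). Pik3cd, Pik3r1 and Vav1 did not pass by their brightest probe sets. For Vav1, an exchange factor for Rac, another probe set rose from 53.4 to 122 (log2 fold change 1.19, adjusted p = 3.3e-05), while the brightest one gave -0.14. For Pik3cd, a catalytic subunit of PI3 kinase, 3 other probe sets passed in both directions, with log2 fold changes of 0.40, 0.35 and -0.50. Among the ligands of TREM2 and the proteases that shed it, 0 of 5 passed in either direction (1 rose and 1 fell at an unadjusted p under 0.05). The sheddase Adam17 had a log2 fold change of 0.15 (limma adjusted p = 0.0853) and Apoa1, an apolipoprotein, one of -0.21 (limma adjusted p = 0.106). Apoe, a lipoprotein component that TREM2 binds, was at 12878 ± 292 (SD, n = 4) in young and at 13706 ± 171 (SD, n = 4) in old animals, without overlap and without passing (0.09 on the log2 scale, limma adjusted p = 0.215).

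Other receptors that were listed here as users of DAP12 rose in part. Whether each of them pairs with DAP12 was not tested. Of 11, 4 rose and 0 fell (0 at an unadjusted p under 0.05): Clec5a, a receptor of monocytes, from 50.3 to 136 (log2 fold change 1.44), Cd300lb by 0.89, Cd300ld by 0.40 and Sirpb1a by 0.38. Without old replicates 2 and 4 the count was 2. Trem1 and Trem3, the relatives of Trem2 on neutrophils and monocytes, had log2 fold changes of 0.01 and 0.05 and did not pass. In the list around dectin-1, 8 of 9 genes rose and 0 fell (0 at an unadjusted p under 0.05). Clec4d, a neighbouring lectin receptor that signals through the gamma chain, rose by 1.56, Fcer1g, that gamma chain, by 1.25 and Clec4n, dectin-2, by 0.85. Clec4e, another lectin receptor, did not pass by its brightest probe set (log2 fold change 0.23) and did by a dimmer one (1.86, limma adjusted p = 0.000948). Bcl10 and Malt1, which relay the signal to NF-kappaB, rose by 0.32 and 0.48. Syk and Plcg2 are counted in both lists.

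Of 33 other genes of disease microglia and lipid-associated macrophages, 26 rose and 0 fell (0 at an unadjusted p under 0.05), with a median log2 fold change of 0.39. The largest rises were those of Cd300lf, a lipid-binding receptor, by 2.95, Itgax, the integrin chain CD11c, by 2.29, Fabp4, a fatty acid carrier, by 1.88, and Atp6v0d2, a subunit of the lysosomal proton pump, by 1.86. Fabp4 ran from 327 to 518 in the young arrays and from 1217 to 1936 in the old ones, and is also a fat and endothelial gene. Among the other genes of the list, Cd36, a scavenger receptor, rose by 0.83, Lipa, the lysosomal lipase, by 0.56 and Npc2, which moves cholesterol out of the lysosome, by 0.24. Plin2, the coat of lipid droplets, did not pass (log2 fold change 0.15, adjusted p = 0.19), nor did the cholesterol exporter Abca1 (0.23, adjusted p = 0.0526), whereas its partner Abcg1 rose by 0.36. Igf1 and Csf1, growth factors that did not pass by their brightest probe sets, each rose by 2 dimmer ones (by 0.64 and 0.37 for Igf1 and by 0.32 and 0.23 for Csf1). Homeostatic microglia genes were mixed. Of 13, 4 rose and 0 fell (1 at an unadjusted p under 0.05): Tgfbr1 by 0.77, P2ry12 by 0.70, Selplg by 0.67 and Olfml3 by 0.57. Tmem119 and Cx3cr1 had log2 fold changes of 0.00 and -0.18 and did not pass.

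**Figure D4:**
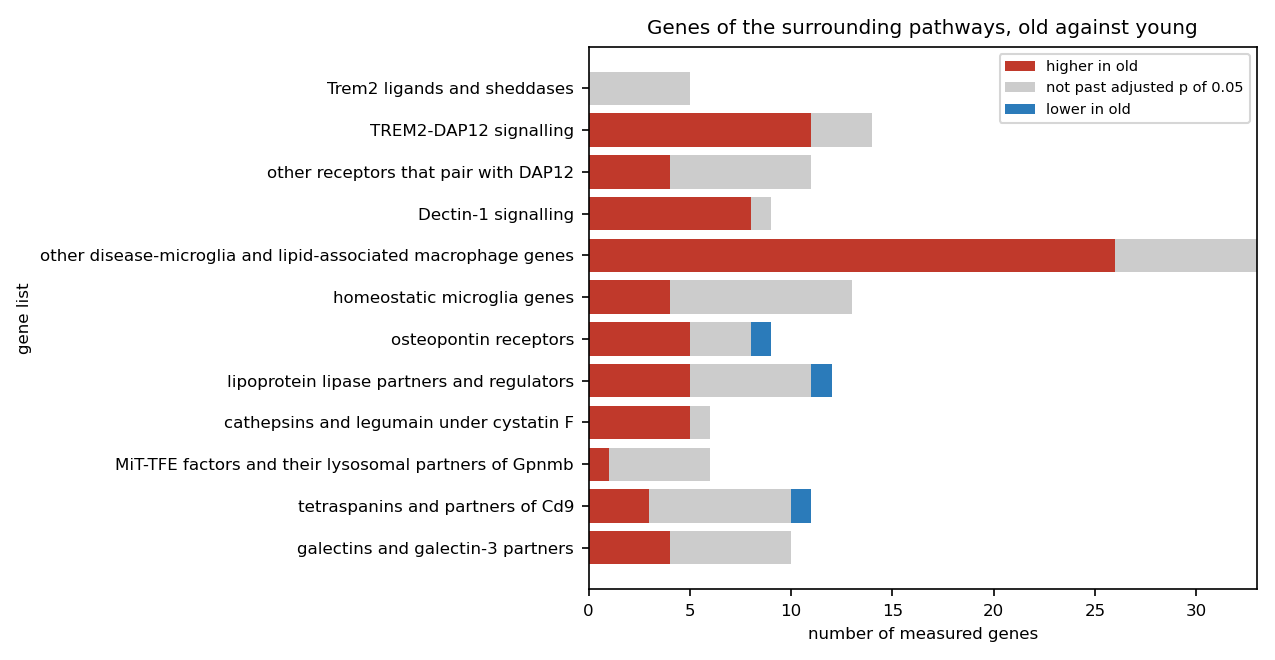
Number of measured genes (horizontal axis) of each list around the 9 genes that were higher (red), lower (blue) or not past an adjusted p of 0.05 (grey) in 4 old against 4 young arrays. Dectin-1 signalling, with 8 of 9, and TREM2-DAP12 signalling, with 11 of 14, are mostly red, and the ligands and sheddases of Trem2 have 0 of 5 in colour. The list named Dectin-1 signalling also holds neighbouring lectin receptors and their gamma chain, and it shares Syk and Plcg2 with the TREM2-DAP12 list.

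Partners of the single proteins were read from lists of their own. For osteopontin, whose gene was not analysed here, 5 of 9 receptor chains rose and 1 fell. Itgb3, the beta3 integrin chain, rose by 1.31, Itga4 by 0.82, Cd44 by 0.87, Itga5 by 0.35 and Itgb5 by 0.29, and Itgav fell by 0.20, a call lost when any single array but old replicate 1 was left out. By dimmer probe sets Itga9 fell by 0.52 and Itgb1 by 0.35, and neither passed by its brightest one. For lipoprotein lipase, 5 of 12 rose and 1 fell: Lrp1, a receptor for lipoproteins, by 0.53, the activator Apoc2 by 0.39, Apoc3 by 0.38, Angptl8 by 0.35 and Sel1l by 0.22, with the protease Pcsk6 down (log2 fold change -0.20), a call lost when any single array but young replicate 2 was left out. Without young replicate 1, young replicate 3 or old replicate 4, 3 of the 12 rose. Vldlr, a receptor that takes up lipoproteins, did not pass by its brightest probe set (log2 fold change -0.24) and fell by 2 others (by 0.44 and 0.55). Gpihbp1, which holds the lipase on the capillary wall, did not pass (log2 fold change 0.45, adjusted p = 0.224). For cystatin F, 5 of 6 proteases rose and 0 fell (0 at an unadjusted p under 0.05). Ctsk, cathepsin K, rose from 749 to 2141 in intensity, Lgmn, legumain, by 1.09 on the log2 scale, Ctsh by 0.62, Ctss by 0.50 and Ctsl by 0.28, while Ctsc, the best known target of cystatin F, had a log2 fold change of 0.07 (limma adjusted p = 0.487).

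The next counts come from short lists and are to be read beside the 11.8% of all genes that rose and the 9.56% that fell. For Gpnmb, 1 of 6 factors of the MITF and TFE family and their lysosomal partners rose and 0 fell (0 at an unadjusted p under 0.05), a count not told apart from that share. The 1 that rose was Tfec, the macrophage member of the family, which was at 72.1 ± 5.94 in young and at 196 ± 17.7 in old arrays (SD, n = 4), higher by 1.44 on the log2 scale (limma adjusted p = 3.3e-05), while Mitf, Tfeb and Tfe3 did not pass. For Cd9, 3 of 11 tetraspanins and partners rose, Cd53 by 1.31, Tspan4 by 0.50 and Igsf8 by 0.25, and the growth factor Hbegf fell by 0.89. Cd37 did not pass by its brightest probe set (log2 fold change -0.04) and did by another (1.59, limma adjusted p = 3.7e-05), and Cd151 fell by 0.22 by a dimmer probe set alone. For galectin-3, 4 of 10 rose and 0 fell (0 at an unadjusted p under 0.05): Lgals3bp, its binding protein, by 0.76, Lgals9 by 0.58, Pdcd6ip by 0.40 and Lgals1 by 0.39.

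Osteoclasts share part of this repertoire, being macrophage relatives that break down bone. Of 10 osteoclast markers, 3 rose and 0 fell (0 at an unadjusted p under 0.05), namely Atp6v0d2 by 1.86, the acid phosphatase Acp5 by 1.85 on the log2 scale, and Ctsk. Nfatc1 and Tnfrsf11a did not pass by their brightest probe sets (log2 fold changes -0.04 and -0.14). By a dimmer probe set Nfatc1 rose by 0.39 (limma adjusted p = 0.00674) and Tnfrsf11a by 0.20 (limma adjusted p = 0.0236). Calcr, Ocstamp and Dcstamp, which define the mature cell, had mean intensities of 17.4 to 112 in either age and did not pass. Of 10 endothelial markers 8 fell, among them Tek by 0.63, Tie1 by 0.61, Kdr by 0.56 and Cdh5 by 0.41 (4 if old replicate 3 was left out, and 2 if old replicates 2 and 4 were). Of 10 markers of Mueller glia and astrocytes 4 fell (Fabp7, Slc1a3, Sox2 and Gfap), and Vim rose by 0.19, a call lost when any single array but young replicate 2 or old replicate 1 was left out. Glul and Aqp4 fell by dimmer probe sets alone, by 0.26 and 0.32. In bone and cartilage 2 of 9 rose (11.8% of all genes did), Ibsp by 0.38 and Matn1 by 0.32, and neither call held without young replicate 1 or 2 or old replicate 4. Dendritic cell markers (0 of 7 passed, with 2 higher and 1 lower at an unadjusted p under 0.05) and rod markers (0 of 8, and 0 at an unadjusted p under 0.05) gave no call by their brightest probe sets. The smallest p were those of Zbtb46 and Itgae in the first list and of Pde6a and Sag in the second. Zbtb46 fell by a dimmer probe set (log2 fold change -0.33, limma adjusted p = 0.00906). The part of any of these cells in the levels of the 9 genes was not tested.

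**Figure D5:**
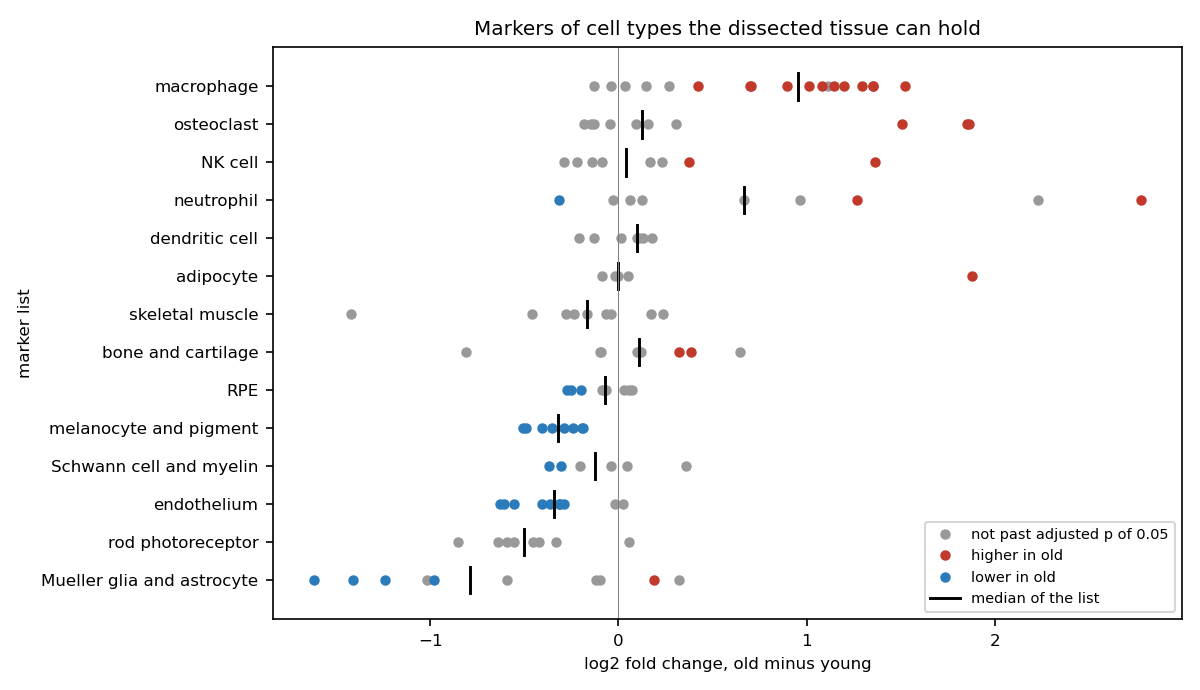
Log2 fold change, old minus young (horizontal axis), of each measured marker gene (points, red for higher and blue for lower at an adjusted p under 0.05, grey for neither) of 14 cell types, with the median of each list as a black bar. The macrophage list has 12 of 18 markers in red, while all 8 pigment cell markers and 8 of 10 endothelial markers are blue.

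The genes nearest to Trem2 and Tyrobp in their pattern over the 8 arrays were found among all 18193 genes by the mean absolute difference of log2 values, each gene centred on its own mean. Nearest to Trem2 by its brighter probe set were Dram1 (0.07 log2 units), Plek (0.07), C1qb (0.08), Tfec (0.08) and Pik3r5 (0.08). Nearest to Tyrobp were Nckap1l (0.03), Mpeg1 (0.03), Ptpre (0.04), Pld3 (0.04) and Icam1 (0.05). The log2 fold changes of these genes ran from 1.14 to 1.52, as the measure requires for genes that lie near Trem2 and Tyrobp.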

How the data were processed

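RNA of RPE/choroid from 4 young and 4 old samples was hybridized by the authors to Affymetrix Mouse 430 2.0 arrays. The deposited intensity values are linear and normalized. Which of the routes in the authors' methods (RMA, invariant set normalization, BRB-ArrayTools) made them is not stated. Values were floored at 1 (8 to 14 an array) before the log2 step. All 45037 probe sets other than 64 controls were fitted with R 4.3.3 and limma 3.58.1 (lmFit, eBayes), old against young, and p-values were adjusted by Benjamini-Hochberg across the whole table, in which 34945 probe sets named 1 gene, 932 several and 9160 none. For a gene with several, the highest mean log2 value decided. All probe sets of the 9 measured genes were named, and of each list up to 4 genes past an adjusted p of 0.05 with the largest changes (all where 5 or fewer passed, the 2 with the smallest p where none did), and the 5 genes nearest to Trem2 and to Tyrobp in pattern. Values of other list members were named after they were seen. The genes, lists and rules were chosen with earlier results of these data known, and the study lists several of the genes from these same arrays, so their direction is not independent evidence. The test was checked on simulated data. Alternatives were quantile normalization, median centring, a filter on low values, other floors, trend and robust estimation, array weights, a replicate block, leaving out arrays and other readings per gene. The labels share replicate numbers between the ages without stating a pairing. p-values measure the spread between pools of 2 animals.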

Additional observations from a re-analysis of the deposited data

Results flagged for a closer look

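In groups of 4 arrays, 1 array lay far from the other 3 for 5 of 52 sets of values examined, and chance alone gives about 1 in 20. Young replicate 2 was the array that stood apart in 3 of them. Trem2 by 1421792_s_at was at 531 there, against 398 to 413 in the other young arrays. Trem2 by 1421226_at was at 169, against 192 to 195, so that its 2 probe sets deviated in opposite directions in the same array. Cd9 was at 2686, against 2343 to 2369. Young replicate 1 was the low one for Gpnmb by 1448303_at, at 7286 against 8115 to 8283. The summed intensity of 9 neutrophil markers was 18155 in old replicate 2, against 1799 to 3053 in the other old arrays. Without young replicate 2 the same number of the 12 probe sets rose (8).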

How the results depend on the processing

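Of 203 log2 fold changes of the 12 probe sets under 17 alternatives, 200 kept their side of the threshold, and no value that passed changed sign. The exceptions were Trem2 by 1421226_at, which passed with median centring (adjusted p = 0.0406) and with the filter on low values (adjusted p = 0.0443), and Gpnmb by 1439345_at without old replicates 2 and 4. Cst7 did not pass the filter and has no value there. The counts of higher and lower genes were 7 and 0 under every alternative, and the count past 2-fold was 4 to 5 with single arrays left out. The log2 fold change of Lpl by its brighter probe set changed sign without passing, from -0.27 to 0.02, when single arrays were left out. With the replicate block 8 probe sets, 7 genes and 5 genes past 2-fold were called as before. The residuals of same-numbered arrays correlated at 0.0971, 0.019, 0.0218 and 0.0427, and only replicate 1 was closest to its own number, so no pairing was assumed.

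Over the lists around the genes, 73 genes rose and 3 fell. The 3 became 5 with quantile normalization, a floor of 16, trend and robust estimation or the mean over probe sets, 6 with the filter, 9 with array weights, 10 when any probe set counts, 1 with median centring, 1 without old replicates 2 and 4, and 1 to 5 with single arrays left out. Of the marker genes, 26 fell, 10 without old replicates 2 and 4 and 15 to 27 with single arrays left out. Of all genes 2145 rose and 1739 fell, an order that quantile normalization turned (1921 and 2053). The causes were not tested.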
